A study of Oryza sativa with 18 samples.

Results

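The genes described here are the 5 rice loci that encode the silicon transporters Lsi1, Lsi2 and Lsi6 and the channels OsNIP1;1 and OsNIP3;1. They were picked by locus identifier, with earlier results of these data known, and make up 5 of the 56508 loci counted. Each has 1 transcript in the table. Lsi1 is LOC_Os02g51110, Lsi2 is LOC_Os03g01700, Lsi6 is LOC_Os06g12310, OsNIP1;1 is LOC_Os02g13870 and OsNIP3;1 is LOC_Os10g36924, and the identifiers place them on chromosomes 2, 3, 6, 2 and 10 of the MSU annotation, version 7. Their sequences and coordinates are not used here.

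All plants were Oryza sativa cv. Nipponbare, grown on Fahraeus medium low in nitrogen. At an age of 7 days they were treated as whole seedlings for 1 h, either with 2,4-D (a synthetic auxin) at 50 µM or with the solution lacking it (mock). Root messenger RNA was sequenced at 3 times, given as days after the treatment (dpt): 1, 7 and 14 dpt. Every combination of treatment and time had 3 biological replicates, which gave 6 groups and 18 libraries. The labels state that the 2,4-D roots of 7 and 14 dpt contained nodule-like structures (NLSs), outgrowths that auxin induces without bacteria, and that the 2,4-D roots of 1 dpt and all mock roots contained none. Only NLS-bearing roots were extracted from 2,4-D plants of 7 and 14 dpt, so treatment and organ makeup changed together there, and in whole roots fewer cells of a type and less RNA per cell cannot be told apart. How many plants went into a replicate is not given in the sources used here.

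Rice takes up silicon as silicic acid through a pair of transporters in the exodermis and endodermis of the root. Lsi1, a channel of the NIP (nodulin 26-like intrinsic protein) group of aquaporins, lets silicic acid into the cell on the outer side, and Lsi2, an active exporter that is no aquaporin, releases it on the inner side toward the stele. Lsi6 is a close relative of Lsi1 known from xylem parenchyma of leaves, from nodes and from root tips. OsNIP3;1 is a boric acid channel, and OsNIP1;1 is known to carry arsenite. Casparian strips seal the wall space around the cells that hold Lsi1 and Lsi2, which makes the passage through both proteins necessary.

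Among the 5 genes Lsi6 differed most between 2,4-D and mock roots. It fell 9.77-fold at 1 dpt and 15.8-fold at 14 dpt, and its mean was 7.03% of mock at 7 dpt, where the test was not passed. OsNIP1;1 rose 3.99-fold at 7 dpt. Lsi1 and Lsi2 were below mock in every 2,4-D library of 7 and 14 dpt, as were 19.4% and 19.8% of loci at these times. Neither passed the test at any time, and OsNIP3;1 was neither separated from mock nor called. The paper lists the loci of Lsi1, Lsi6 and OsNIP1;1 as NIP genes differentially expressed at 7 dpt, from limma-voom. With limma-voom and TMM factors here, adjusted p at 7 dpt was 0.0545 for Lsi1, 0.0539 for Lsi6 and 0.0209 for OsNIP1;1. A gene was called when edgeR's quasi-likelihood test gave a Benjamini-Hochberg adjusted p under 0.05 over all loci tested and the log2 fold change was at least 1 in size. By this rule 1 of the 5 genes was called at each time, against 13.9% of 13483 loci at 1 dpt, 11.2% of 13780 at 7 dpt and 8.31% of 13664 at 14 dpt. Loci called higher were 5.24%, 5.12% and 3.11% of those tested at 1, 7 and 14 dpt, and loci called lower 8.68%, 6.10% and 5.20%. The median log2 fold change of the 5 genes was -0.44 at 1 dpt, -1.22 at 7 dpt and -1.16 at 14 dpt, where that of all loci tested lay between -0.02 and 0.00.

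Library totals ran from 9416952 to 18057748 counts, and the 5 genes together took 0.0484% to 0.372% of them. The mean correlation of a library with its own group was 0.833 to 0.949 and with the other treatment of its day 0.701 to 0.833, so no library matched the other treatment better than its own. The labels give 1 sequencing batch for 1 dpt and another for 7 and 14 dpt. Each 2,4-D and mock pair thus lay within a batch, while differences between 1 dpt and the later times cannot be told apart from the batch. Levels below are CPM, that is counts relative to the size of the library, scaled by the TMM method over all 18 libraries. CPM is not corrected for transcript length, so levels are compared between groups of 1 gene only.

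**Figure D1:**
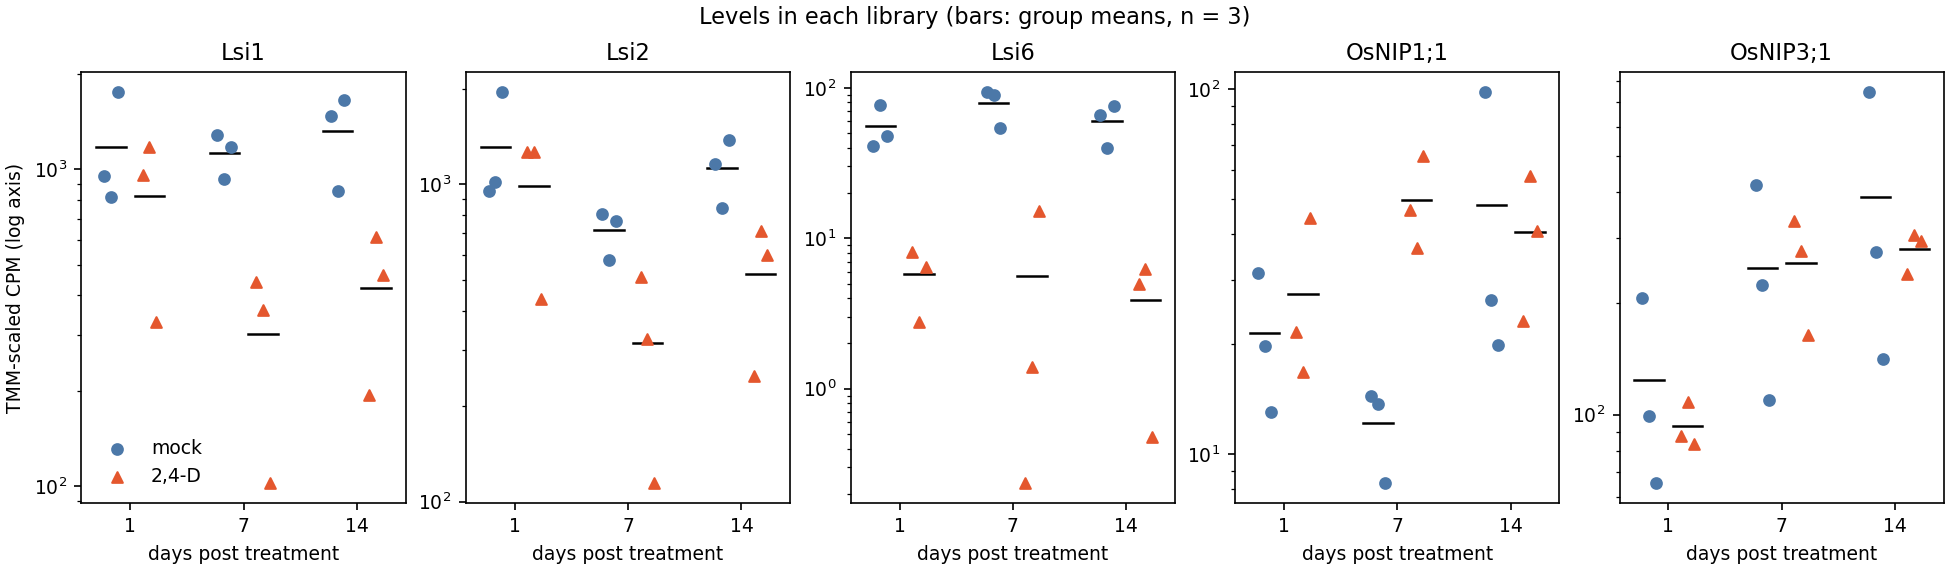
Level of each of the 5 genes in every library against days post treatment, in TMM-scaled CPM on a log axis whose range differs between panels. Circles are mock libraries, triangles 2,4-D libraries and bars group means (n = 3). The 2,4-D triangles of Lsi6 lie below all mock circles at 1, 7 and 14 dpt, and those of OsNIP1;1 lie above them at 7 dpt.

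Lsi1, the influx channel, was measured at 955, 820 and 1759 CPM in mock replicates 1, 2 and 3 of 1 dpt and at 961, 1174 and 331 CPM in the 2,4-D replicates. The groups overlapped, with replicate 3 of the 2,4-D roots lower than the rest. At 7 dpt the mock replicates had 1282, 934 and 1178 CPM and the 2,4-D replicates 441, 361 and 102 CPM. At 14 dpt the mock replicates had 1474, 855 and 1651 CPM and the 2,4-D replicates 195, 614 and 463 CPM. All 3 2,4-D libraries lay below all 3 mock libraries at both later times, as 19.4% of loci did at 7 dpt and 19.8% at 14 dpt (16.1% lay above at 14 dpt). The mean of the 2,4-D roots was 69.8% of mock at 1 dpt (822 ± 439 against 1178 ± 508 CPM, SD, n = 3), 26.6% at 7 dpt (301 ± 177 against 1131 ± 179 CPM) and 31.9% at 14 dpt (424 ± 213 against 1327 ± 418 CPM). The log2 fold change was -0.55 at 1 dpt (SE 0.53, edgeR adjusted p = 0.517), -1.95 at 7 dpt (SE 0.53, edgeR adjusted p = 0.0600) and -1.70 at 14 dpt (SE 0.49, edgeR adjusted p = 0.0807). The 95% intervals of -3.23 to -0.67 at 7 dpt and -2.89 to -0.50 at 14 dpt did not reach 0, yet neither time passed the threshold over all loci. Without replicate 3 of the 2,4-D roots of 7 dpt, the library with the least Lsi1, the log2 fold change was smaller at -1.54 but passed the test (edgeR adjusted p = 0.0149, range over all alternatives 0.00145 to 0.143). It was also called lower at 7 dpt in a fit of all 18 libraries (edgeR adjusted p = 0.0305) and by DESeq2 (adjusted p = 0.00145), and DESeq2 called it at 14 dpt as well (adjusted p = 0.00526, range over all alternatives 0.00526 to 0.186).

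Lsi2, the exporter, ranked the libraries in the same order as Lsi1 in 4 of the 6 groups. At 1 dpt it had 955, 1018 and 1955 CPM in mock roots and 1261, 1260 and 437 CPM in 2,4-D roots, and the groups overlapped. At 7 dpt the mock replicates held 806, 576 and 768 CPM and the 2,4-D replicates 509, 325 and 114 CPM. At 14 dpt the values were 1156, 841 and 1381 CPM in mock and 249, 713 and 598 CPM in 2,4-D roots. The 2,4-D libraries again lay below all mock libraries at 7 and 14 dpt, as in 19.4% and 19.8% of loci. As in the case of Lsi1 the mock replicate 3 of 1 dpt was the highest of the 18 libraries. The 2,4-D mean was 75.3% of mock at 1 dpt (986 ± 476 against 1309 ± 560.2 CPM), 44.1% at 7 dpt (316 ± 197 against 717 ± 124 CPM, SD, n = 3) and 46.2% at 14 dpt (520.1 ± 242 against 1126 ± 271 CPM). Its log2 fold changes of -0.44 (SE 0.50), -1.22 (SE 0.51) and -1.16 (SE 0.43) at 1, 7 and 14 dpt had edgeR adjusted p-values of 0.582, 0.166 and 0.142. The 95% interval at 7 dpt, -2.47 to 0.03, held 0, and that at 14 dpt, -2.21 to -0.11, did not. DESeq2 called it lower at 14 dpt (adjusted p = 0.0495, range over all alternatives 0.0495 to 0.293).

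Lsi1 and Lsi2 varied together. Their log2 CPM correlated at r = 0.944 over the 18 libraries and at r = 0.984 once each group's mean was taken out, so the libraries poor in one within a group were also poor in the other. The points share library, scaling and treatment, and the values are descriptive. Replicate 3 had the lowest level of both genes among the 2,4-D libraries of 1 dpt and of 7 dpt, and replicate 1 among those of 14 dpt. The ratio of the 2 genes inside a library does not depend on the scaling. The log2 ratio of Lsi2 to Lsi1 counts was 0.155 ± 0.157 in mock and 0.298 ± 0.170 in 2,4-D roots at 1 dpt (SD, n = 3), -0.661 ± 0.041 and 0.073 ± 0.195 at 7 dpt, and -0.211 ± 0.169 and 0.314 ± 0.085 at 14 dpt. At both later times every 2,4-D library had a higher ratio than every mock library, while at 1 dpt they overlapped. The difference averaged 0.47 over the 3 times (exact permutation test within times, two-sided, p = 0.00075, adjusted p = 0.003 over 4 ratios). The mean difference stayed between 0.44 and 0.50 when any 1 library was left out.

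**Figure D2:**
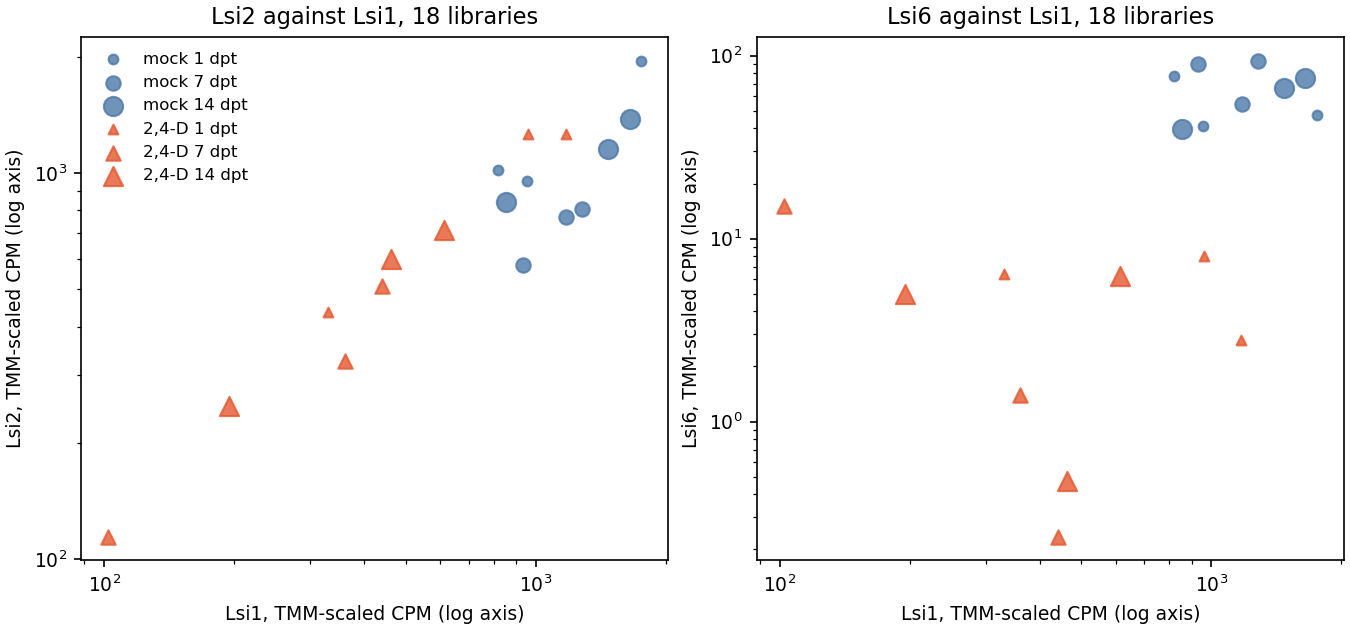
Lsi2 (left) and Lsi6 (right) against Lsi1 in the 18 libraries, both axes in TMM-scaled CPM on a log scale. Circles are mock and triangles 2,4-D libraries, and larger symbols stand for later times. Lsi2 and Lsi1 lie along 1 band (r = 0.944), whereas the Lsi6 levels of 2,4-D libraries lie below all mock libraries at every level of Lsi1.

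Lsi6, the relative of Lsi1, had 41.1, 77.2 and 47.7 CPM in the mock roots of 1 dpt and 8.04, 2.79 and 6.42 CPM in the 2,4-D roots. At 7 dpt the mock replicates had 94.0, 89.9 and 54.4 CPM. The 2,4-D replicates of 7 dpt had 0.235, 1.40 and 15.1 CPM, from 3, 17 and 231 counts. At 14 dpt the mock replicates had 66.4, 39.8 and 75.4 CPM and the 2,4-D replicates 4.98, 6.24 and 0.475 CPM, the last from 6 counts. No 2,4-D library reached the lowest mock library of its day at any time, as held in that direction for 21.2% of loci at 1 dpt, 19.4% at 7 dpt and 19.8% at 14 dpt. The 2,4-D libraries differed widely among themselves at the later times, by 64.2-fold between the extremes at 7 dpt and 13.2-fold at 14 dpt, against 2.89-fold at 1 dpt and at most 1.90-fold in any mock group. The counting intervals of the extremes did not overlap. The 3 counts of replicate 1 at 7 dpt correspond to 0.296% of the mock mean (exact Poisson 95% interval 0.0611% to 0.866%) and the 231 counts of replicate 3 to 19.0% (16.6% to 21.6%), intervals that cover counting error only.

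At 1 dpt, when the roots had no NLSs, Lsi6 fell by 3.29 on the log2 scale (SE 0.45, edgeR adjusted p = 0.00693), from 55.3 ± 19.2 to 5.75 ± 2.69 CPM (SD, n = 3). At 7 dpt the means were 79.4 ± 21.8 and 5.58 ± 8.27 CPM, and the log2 fold change of -3.83 (SE 1.28, 95% interval -6.94 to -0.72) did not pass the test (edgeR adjusted p = 0.0999). At 14 dpt it fell by 3.99 on the log2 scale (SE 0.87, edgeR adjusted p = 0.0430), from 60.5 ± 18.5 to 3.90 ± 3.03 CPM. Whether Lsi6 was called at 7 dpt depended on replicate 3 of the 2,4-D roots and on the fit. Without this replicate the log2 fold change was -6.64 and the gene was called (edgeR adjusted p = 0.00840, range over all alternatives 0.00840 to 0.233). A fit of all 18 libraries, this replicate included, also called it (-3.81, edgeR adjusted p = 0.0184). DESeq2 gave -3.87 but no adjusted p. Replicate 3 of the 2,4-D roots held 14560724 counts, and its mean correlation with its own group, 0.888, was the lowest among the 9 2,4-D libraries. The part of this in the result was not tested. The call at 14 dpt was lost when any of the 3 mock libraries was removed, or either of the first 2 among the 2,4-D replicates, and was kept when replicate 3 of the 2,4-D roots was removed, with log2 fold changes of -4.49 to -3.46 over the 6 removals. It was also lost in limma-voom (adjusted p = 0.0718) and without a filter on low counts (edgeR adjusted p = 0.106, range over all alternatives 7.84e-06 to 0.147). Over the 6 removals the number of all loci called at 14 dpt ran from 14 to 1486, against 1135 with all 6 libraries. The call of Lsi6 at 1 dpt held under each of the 6 removals (-3.62 to -2.95, edgeR adjusted p 0.00783 to 0.0251).

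Across the 6 groups the mean level of Lsi6 ran, from high to low, through mock roots of 7, 14 and 1 dpt and then 2,4-D roots of 1, 7 and 14 dpt. The only step between neighbours in this order larger than the SD of either was the one from mock roots of 1 dpt to 2,4-D roots of 1 dpt. For the other 4 genes no step between neighbouring groups exceeded the larger of their SDs. The log2 ratio of Lsi6 to Lsi1 within libraries differed between 2,4-D and mock roots by -2.71 at 1 dpt, -3.27 at 7 dpt and -2.79 at 14 dpt, and by -2.92 on average (exact permutation test within times, two-sided, p = 0.00425, adjusted p = 0.00567 over 4 ratios). The 2,4-D libraries lay below all mock libraries in this ratio at 1 and 14 dpt, but at 7 dpt replicate 3, with the most Lsi6 and the least Lsi1 of its group, exceeded the 3 mock libraries. With any 1 library left out the mean difference was between -3.65 and -2.33 and stayed past the threshold. The 2 genes correlated at r = -0.534 over the 18 libraries after removal of the group means, and at r = 0.524 before it. The direction was not shared by all groups. Both genes ranked the replicates alike in mock roots of 14 dpt and in reverse order in 2,4-D roots of 7 dpt.

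**Figure D3:**
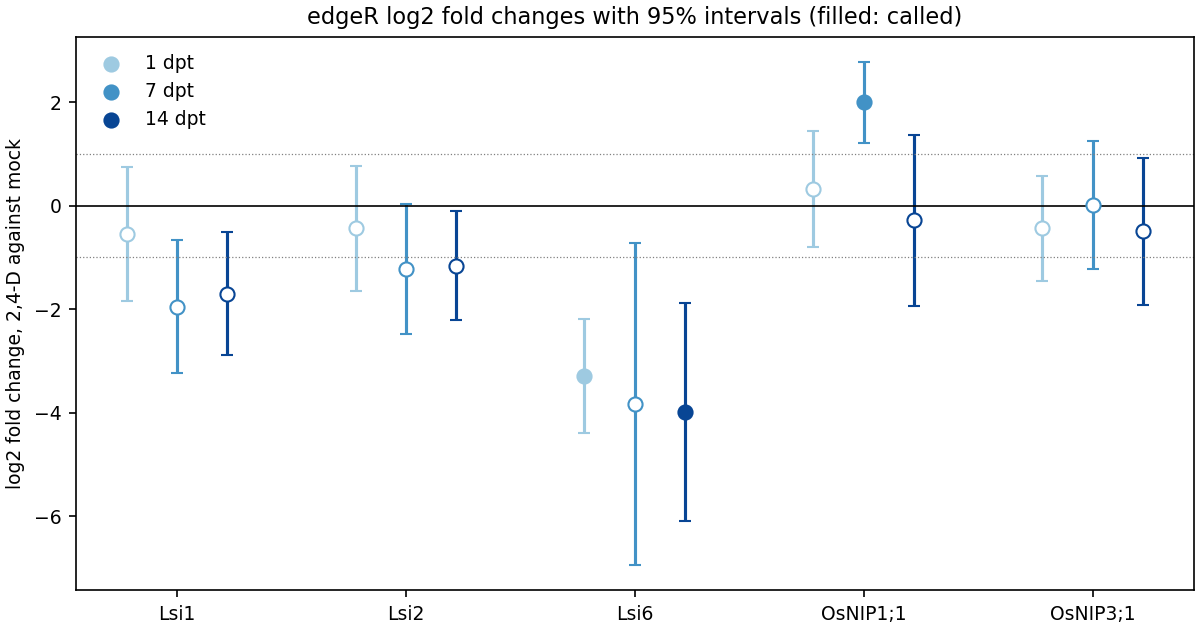
Log2 fold change of 2,4-D against mock roots for each gene at 1, 7 and 14 dpt (light to dark), from edgeR fits of the 6 libraries of that day, with 95% intervals. Filled points were called, and dotted lines mark log2 fold changes of 1 and -1. Those of Lsi6 at 1 and 14 dpt and of OsNIP1;1 at 7 dpt are filled.

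OsNIP1;1, the arsenite-permeable channel, was the only 1 of the 5 genes called higher at any time. At 1 dpt it had 31.4, 19.8 and 13.04 CPM in mock and 21.6, 16.7 and 44.2 CPM in 2,4-D roots, which overlapped (18.3% of loci lay wholly above mock at that time). At 7 dpt the mock replicates had 14.4, 13.7 and 8.31 CPM and the 2,4-D replicates 46.6, 36.5 and 65.5 CPM. All 3 2,4-D libraries lay above all mock libraries, as 19.5% of loci did in that direction. At 14 dpt the mock values of 98.1, 26.3 and 19.9 CPM enclosed the 2,4-D values of 23.1, 57.8 and 40.9 CPM at both ends. The gene thus rose by 2.00 on the log2 scale at 7 dpt (SE 0.32, 95% interval 1.21 to 2.78, edgeR adjusted p = 0.0159), from 12.1 ± 3.33 to 49.5 ± 14.7 CPM (SD, n = 3). The log2 fold change was 0.33 at 1 dpt (SE 0.46, edgeR adjusted p = 0.663) and -0.28 at 14 dpt (SE 0.68, edgeR adjusted p = 0.823). Without 2,4-D replicate 1 the 7 dpt value was 2.05 and the call was lost (edgeR adjusted p = 0.0599, range over all alternatives 5.99e-07 to 0.0820), and without mock replicate 1 the 14 dpt value was 0.78. With 1 library left out at 7 dpt, 373 to 2115 of all loci were called, against 1547 with all 6 libraries.

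The 2,4-D effect on OsNIP1;1 was lower at 14 than at 7 dpt by 2.27 on the log2 scale (SE 0.81, 95% interval -4.00 to -0.54), a difference of -2.27 that became -1.20 without mock replicate 1 of 14 dpt. This interaction had an unadjusted edgeR p of 0.0138 and an adjusted p of 0.830 and was not called, like every other locus in that contrast (0% of 15132 called by edgeR, with 851 at an unadjusted p under 0.05, 4 called by DESeq2 and 0 by limma-voom). Its level was higher in mock roots of 14 than of 7 dpt by 1.98 on the log2 scale (SE 0.59, edgeR unadjusted p = 0.00442, adjusted p = 0.886), which was not called either, and mock replicate 1 of 14 dpt alone stood at 98.1 CPM. Without that library the difference was 0.91. In the 2,4-D roots the level differed by -0.29 between 14 and 7 dpt. The ratio of this gene to Lsi1 was higher in 2,4-D roots by 2.298 on the log2 scale over the 3 times (0.95 at 1 dpt, 4.17 at 7 dpt and 1.77 at 14 dpt, exact permutation test within times, two-sided, p = 0.004, adjusted p = 0.00567). It lay between 1.98 and 2.51 with any 1 library left out. The groups overlapped in this ratio at 1 dpt, and all 2,4-D libraries lay above all mock libraries at 7 and 14 dpt. A lower Lsi1 raises the ratio by itself.

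OsNIP3;1, the boric acid channel, showed its widest spread among mock roots. These held 207, 99.2 and 65.3 CPM at 1 dpt, 417, 224 and 109 CPM at 7 dpt and 746, 275 and 141 CPM at 14 dpt. The 2,4-D roots held 87.5, 108 and 83.4 CPM at 1 dpt, 333, 277 and 164 CPM at 7 dpt and 240.2, 306 and 296 CPM at 14 dpt. The 2,4-D libraries lay inside the mock range at each time, and the coefficient of variation was 59.7%, 62.1% and 82.0% in mock roots of 1, 7 and 14 dpt against 14.5%, 33.4% and 12.6% in 2,4-D roots. Its log2 fold changes were -0.44 at 1 dpt (SE 0.42, 95% interval -1.45 to 0.57), 0.01 at 7 dpt (SE 0.51, -1.23 to 1.24) and -0.49 at 14 dpt (SE 0.58, -1.91 to 0.93), with edgeR adjusted p-values of 0.509, 0.994 and 0.624. Intervals of this width hold changes of over 1 on the log2 scale, so an equal level in both treatments was not shown. The sign turned at 1 and 14 dpt without mock replicate 1, to 0.16 and 0.42. Relative to Lsi1 it was higher in 2,4-D roots by 1.44 on the log2 scale (0.37, 2.33 and 1.61 at 1, 7 and 14 dpt, exact permutation test within times, two-sided, p = 0.01125, adjusted p = 0.01125 over 4 ratios). All 2,4-D libraries lay above all mock libraries in this ratio at 7 dpt only, and the groups overlapped at 1 and 14 dpt. A lower Lsi1 raises the ratio by itself, so it does not show a rise of OsNIP3;1.

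**Figure D4:**
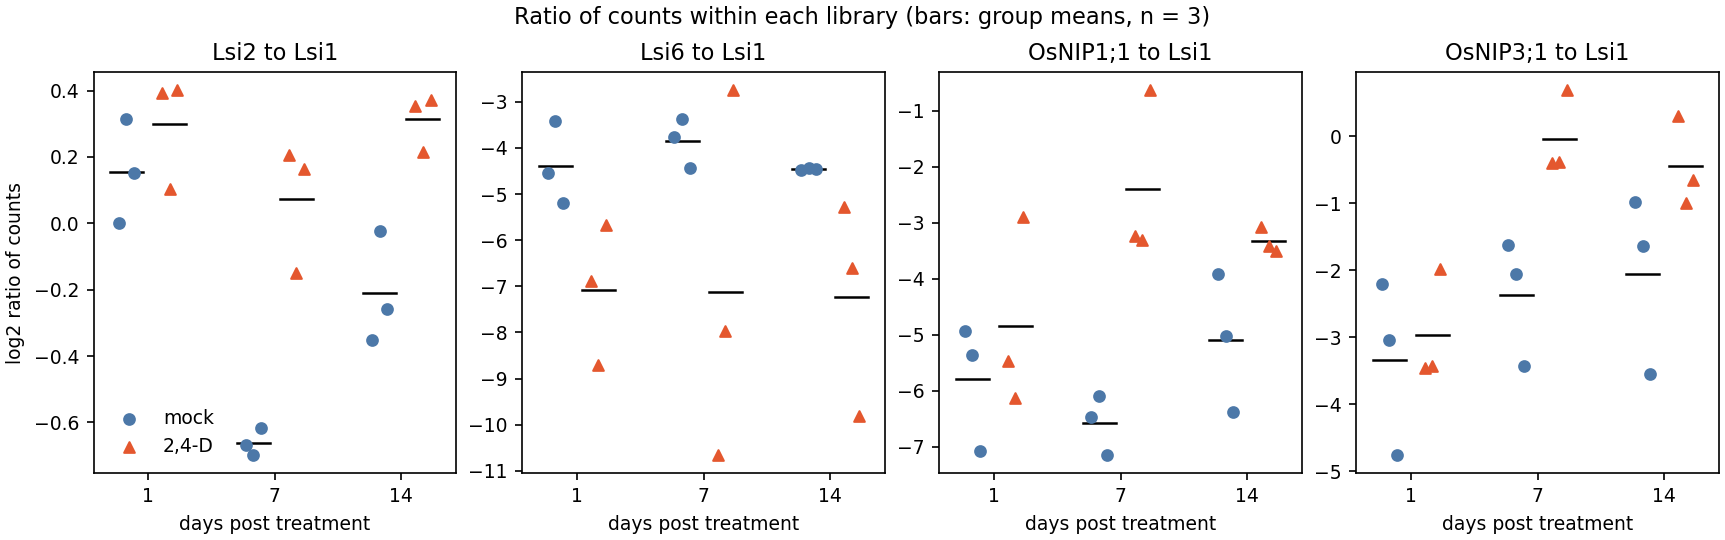
Log2 ratio of the counts of 4 genes to those of Lsi1 in each library against days post treatment, with a range that differs between panels. Circles are mock libraries, triangles 2,4-D libraries and bars group means (n = 3). The Lsi2 ratios of 2,4-D roots lie above those of mock roots at 7 and 14 dpt, and 1 triangle at 7 dpt stands above the mock circles in the Lsi6 panel.

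None of the 5 genes passed the test of a different 2,4-D effect between times. For Lsi6 the effect differed by -0.55 between 7 and 1 dpt (95% interval -3.39 to 2.29), by -0.68 between 14 and 1 dpt (-3.53 to 2.18) and by -0.13 between 14 and 7 dpt (-2.95 to 2.70). For Lsi1 it differed by -1.39 between 7 and 1 dpt (-3.08 to 0.30) and by -1.13 between 14 and 1 dpt (-2.82 to 0.56), and both intervals held 0. For Lsi2 the 3 differences were -0.77, -0.71 and 0.07 in the same order of contrasts (7 against 1, 14 against 1 and 14 against 7 dpt), and for OsNIP3;1 they were 0.46, -0.05 and -0.51. That of OsNIP1;1 between 7 and 1 dpt was 1.67 (-0.06 to 3.40, edgeR adjusted p = 0.448). Of all loci, 0.0661% were called in the contrast of 7 against 1 dpt and 1.61% in that of 14 against 1 dpt. At an unadjusted p under 0.05, 0, 0 and 1 of the 5 genes passed the contrasts of 7 against 1, 14 against 1 and 14 against 7 dpt, and limma-voom and DESeq2 called none in any of them. Between 14 and 7 dpt none of the 5 genes, and 0% of all loci, was called in mock or in 2,4-D roots. The count at an unadjusted p under 0.05 was 1 in mock roots and 0 in 2,4-D roots, and limma-voom and DESeq2 called none of the 5 there. Over all loci, 818 in mock and 727 in 2,4-D roots had an unadjusted p under 0.05, DESeq2 called 18 and 4, and limma-voom called 1 and 0.

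**Figure D5:**
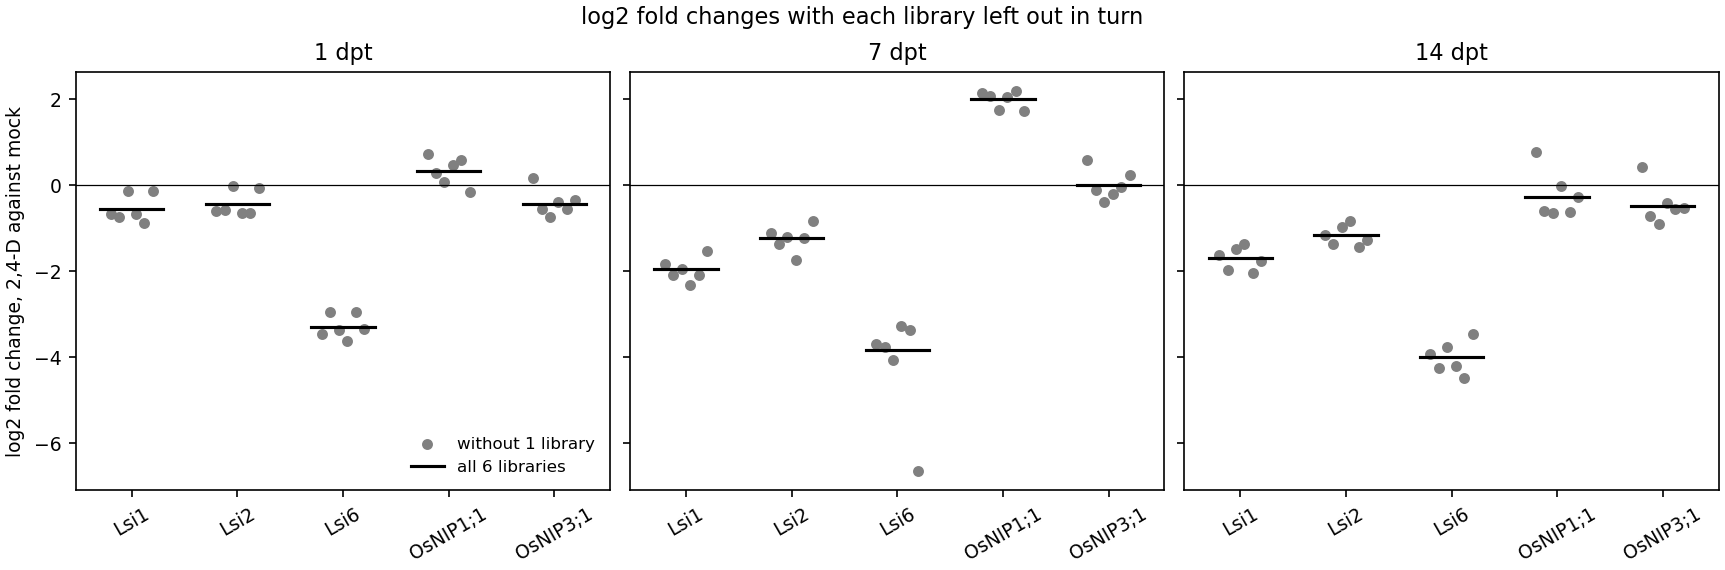
Log2 fold change of 2,4-D against mock roots with each library left out in turn (grey points, 6 per gene and time) and with all 6 libraries (black bars). The point at -6.64 for Lsi6 at 7 dpt is the fit without 2,4-D replicate 3, and the points above 0 at 14 dpt, for both NIP channels other than Lsi1 and Lsi6, are the fits without mock replicate 1.

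Other aquaporins, loci of the UPF0497 family and glycerol-3-phosphate acyltransferases were taken from the study's list of genes changed at 7 dpt. Their counts and medians are thus no independent evidence of direction or of how many loci changed. Shares of all loci are given for scale only. The root cells that express these loci were not determined here. Plasma membrane and tonoplast aquaporins carry mainly water across the cell membrane and the vacuole membrane, and small and basic intrinsic proteins lie in the endoplasmic reticulum. Of 7 aquaporin loci outside the NIP group, 5 were called lower at 1 dpt, 3 at 7 dpt and 2 at 14 dpt, and 0 were called higher. Of all loci tested, 8.68%, 6.10% and 5.20% were called lower at 1, 7 and 14 dpt. The median log2 fold changes of the 7 loci were -1.64, -2.14 and -1.06 against -0.02 to 0.00 for all loci. Each of these aquaporin loci had a negative log2 fold change at each time, called or not. The gamma tonoplast intrinsic protein LOC_Os03g05290 ranged from 1026 to 2346 CPM in mock and from 106 to 342 CPM in 2,4-D roots of 7 dpt, and fell by 2.86 on the log2 scale (SE 0.56, edgeR adjusted p = 0.0257). Plasma membrane intrinsic protein 1;4 (LOC_Os04g47220) fell by 1.51 (SE 0.30, edgeR adjusted p = 0.0265) from 3289 ± 474 to 1183 ± 366 CPM (SD, n = 3). The small and basic intrinsic protein 2;1 (LOC_Os03g20410) fell by 1.18 (SE 0.25, edgeR adjusted p = 0.0323). All 3 calls were lost when mock replicate 1 or 2,4-D replicate 1 or 2 of 7 dpt was left out, with adjusted p-values up to 0.110. Among all loci, 373 to 2115 were called at 7 dpt with 1 library left out, against 1547 with all 6 libraries.

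The UPF0497 family includes the proteins that organise Casparian strips in Arabidopsis. Of 9 such loci, 8 passed the filter on low counts at 1 and 7 dpt and 7 at 14 dpt. At 1 dpt 6 were called lower and 0 higher, at 7 dpt 6 lower and 1 higher, and at 14 dpt 4 lower and 1 higher. Their medians were -1.48, -2.33 and -2.22. All 9 were on the study's list for 7 dpt, so the choice of loci favoured calls at that time. Of all loci tested, 8.68%, 6.10% and 5.20% were called lower at 1, 7 and 14 dpt, and 5.24%, 5.12% and 3.11% higher. LOC_Os04g58760, LOC_Os05g15630 and LOC_Os12g41690 had log2 fold changes of -3.10, -2.65 and -2.55 at 7 dpt and were called (edgeR adjusted p = 0.0114, 0.0110 and 0.00958). LOC_Os01g52610, named because it was the exception, rose by 1.04 at 7 dpt. Glycerol-3-phosphate acyltransferases make precursors of suberin and cutin. Of their 4 loci 2 were called lower at 1 dpt, 4 at 7 dpt and 3 at 14 dpt, and 0 were called higher, with medians of -1.66, -2.28 and -2.53. The strongest at 7 dpt were LOC_Os01g63580, LOC_Os05g20100 and LOC_Os02g02340, with called log2 fold changes of -2.39, -2.36 and -2.20 (edgeR adjusted p = 0.0227, 0.00776 and 0.0285). Leaving out 1 library took the count of lower UPF0497 loci at 7 dpt to between 0 and 7, with 0 in the absence of 2,4-D replicate 1 and 3 in that of any mock replicate or 2,4-D replicate 2. The acyltransferases then numbered 2 to 4, with 2 in the absence of replicate 1 or 2 of either treatment. At 1 dpt the lower UPF0497 loci numbered 0 to 3 without mock replicate 1 or 2 or any 2,4-D replicate, and the acyltransferases 1 without 2,4-D replicate 1 or 2. At 14 dpt the lower UPF0497 loci and the lower acyltransferases each numbered 0 or 1 without any mock replicate or 2,4-D replicate 1 or 3, and the lower aquaporins 0 or 1 without any library other than 2,4-D replicate 3. Under the same removals the calls over all loci numbered 941 to 2598 at 1 dpt, 373 to 2115 at 7 dpt and 14 to 1486 at 14 dpt. With all 6 libraries they numbered 1876, 1547 and 1135.

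The loci most like each gene were sought among 1686 others from the study's lists of differentially expressed genes. The measure was Pearson's r of log2 CPM over the 18 libraries, which share treatment, time and scaling. These candidates were thus picked for a response to the treatment in part of these same libraries. That choice by itself favours high r with genes that responded and lower r with those that did not, so the values are descriptive. Lsi1 and Lsi2 had the same nearest pair, the allene oxide synthase LOC_Os02g12690, an enzyme of jasmonate synthesis (r = 0.948 with Lsi1 and 0.92 with Lsi2), and a cytochrome P450 (LOC_Os05g11130, 0.94 and 0.92), and these likenesses stayed at 0.846 to 0.939 within groups. The third for Lsi1 was the NB-ARC locus LOC_Os01g33810 (0.919) and for Lsi2 another cytochrome P450, LOC_Os10g38090 (0.892). Nearest to Lsi6 were a peroxidase (LOC_Os10g39170, r = 0.957), a copper transport protein (LOC_Os07g48390, 0.951) and a dirigent-like protein (LOC_Os11g07680, 0.951). OsNIP1;1 was most like an invertase or pectin methylesterase inhibitor (LOC_Os01g20980, 0.825), a starch branching enzyme (LOC_Os04g33460, 0.776) and an isoamylase (LOC_Os08g40930, 0.741). The highest values for OsNIP3;1 were lower, 0.704 for a lipoxygenase (LOC_Os11g36719), 0.68 for an NB-ARC locus (LOC_Os11g37050) and 0.667 for a ribose 5-phosphate isomerase (LOC_Os04g24140). These last 2 channels correlated with each other at r = 0.521 over the 18 libraries and 0.651 within groups.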

How the data were processed

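Messenger RNA of rice roots was sequenced in pairs after a stranded library preparation, from 18 libraries in 6 groups of 3, and groups were taken from the sample labels. Reads were checked (RSeQC), mapped to version 7 of the MSU rice genome (Rsubread) and counted for each transcript (featureCounts) by the authors, who deposited raw counts without normalization. How strand and reads shared between loci were treated is not given in the sources used here, which bears on Lsi1 and Lsi6 as close relatives. Totals ran from 9416952 to 18057748 counts.

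The 66860 transcript rows were summed to 56508 loci, with 707 rows that have no locus name kept as they are. Replicates were compared pairwise, and each pair differed by more than sampling noise (chi-square per degree of freedom 8.19 to 104). Treatment was compared with mock for each time on its own with edgeR 4.0.16 (TMM factors, robust quasi-likelihood fit, R 4.3.3), and a locus entered the test if 2 or more of the 6 libraries reached 10 CPM. Benjamini-Hochberg adjustment covered all loci tested, and all 5 genes passed the filter at each time. Levels, interactions and contrasts of 14 against 7 dpt used all 18 libraries (15132 loci). Ratios within libraries took 0.5 added to each count and an exact permutation of treatment within times (8000 arrangements, smallest possible p 0.00025). Correlations used log2 CPM with a prior count of 2. The test was tried on simulated counts first. Plots were drawn with matplotlib 3.10.9. Alternatives were limma-voom (limma 3.58.1) with and without TMM, DESeq2 1.42.0, other scalings and filters, single transcripts, a replicate block, all 18 libraries in 1 fit, no fold threshold and each library left out.

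The 5 genes, the gene lists and the tests were chosen with earlier results of these data known. The text names the 5 genes, up to 3 called loci of each list with the largest absolute log2 fold change at 7 dpt, and the 3 loci most like each gene, with names from the study's gene lists. The names of Lsi2 and OsNIP3;1 came with the choice of the loci.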

Additional observations from a re-analysis of the deposited data

How the results depend on the processing

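Over all alternatives the count of the 5 genes called ran from 0 to 1 at 1 dpt, 0 to 3 at 7 dpt and 0 to 3 at 14 dpt, and it stayed at 0 in every interaction and every contrast of 14 against 7 dpt. At 7 dpt 2 genes were called in DESeq2, which gave no adjusted p for Lsi6, and 3 in a fit of all 18 libraries. At 14 dpt 3 were called in DESeq2 and 0 in limma-voom with or without TMM factors and without a filter on low counts. With 1 library left out the count was 1 at 1 dpt, 0 to 3 at 7 dpt and 0 to 1 at 14 dpt. Loci called among all tested were then 941 to 2598 at 1 dpt, 373 to 2115 at 7 dpt and 14 to 1486 at 14 dpt. The 4 ratios to Lsi1 kept direction and threshold under all 20 alternatives each. The loci called ran from 548 to 3364 at 1 dpt, 307 to 2406 at 7 dpt and 6 to 2185 at 14 dpt, and in the interactions from 0 to 434 (7 against 1 dpt) and 30 to 1212 (14 against 1 dpt). Called aquaporins that fell numbered 2 to 6, 0 to 7 and 0 to 4 at 1, 7 and 14 dpt.

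With the replicate number as a block, 0 of the 5 genes were called at 1, 7 and 14 dpt. The block gave Lsi6 -3.33 at 1 dpt (edgeR adjusted p = 0.0627) and -4.23 at 14 dpt (adjusted p = 0.103), and OsNIP1;1 1.98 at 7 dpt (adjusted p = 0.0820). Without the block these values were -3.29, -3.99 and 2.00. Each of the 3 calls among these genes was thus lost, though the log2 fold changes kept their direction. Over all alternatives, the block among them, calls over all loci were as few as 548, 307 and 6 at 1, 7 and 14 dpt. The block left 1 lower aquaporin, 0 lower UPF0497 loci and 1 lower acyltransferase at 7 dpt. Same-numbered libraries deviated together with correlations from -0.576 to 0.375, over 0.1 in 2 of 9 pairs. Those 2 pairs were at 14 dpt (0.375 and 0.236), where the same-numbered library was also the best match. Deviations within groups of 3 cannot show whether the samples were paired, and the labels give a shared number only. The block also turned OsNIP1;1 at 14 dpt to 0.087, the OsNIP3;1 interaction of 14 against 1 dpt to 0.088 and the Lsi6 interaction of 14 against 7 dpt to 0.18.

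Other reversals, like the block's, concerned values that were not called. OsNIP3;1 at 7 dpt was -0.00199 in DESeq2, -0.00221 with RLE factors, -0.0158 at a filter of 1 CPM, -0.0127 with no filter and -0.0131 for transcript rows, and ran from -0.39 to 0.59 with 1 library left out. At 14 dpt OsNIP1;1 was 0.070 in limma-voom with TMM factors and 0.18 without, and ran from -0.66 to 0.78 with 1 library left out, OsNIP3;1 there from -0.89 to 0.42. At 1 dpt these ranges were -0.16 to 0.73 and -0.74 to 0.16. In limma-voom with and without TMM factors the OsNIP3;1 interaction of 14 against 1 dpt was 0.11 and 0.15, that of Lsi6 between 14 and 7 dpt 0.88 and 0.94, and the difference of Lsi6 between 14 and 7 dpt in 2,4-D roots 0.46 and 0.48. With 1 library left out, the interaction of 7 against 1 dpt ran from -3.30 to 0.045 for Lsi6 and from -0.13 to 1.04 for OsNIP3;1. That of 14 against 1 dpt ran from -0.98 to 0.50 for OsNIP1;1 and from -0.64 to 0.90 for OsNIP3;1. That of 14 against 7 dpt ran from -0.14 to 0.65 for Lsi1, from -0.32 to 0.60 for Lsi2, from -0.66 to 2.69 for Lsi6, from -2.64 to -1.20 for OsNIP1;1 and from -1.09 to 0.41 for OsNIP3;1. The difference between 14 and 7 dpt ran from 0.91 to 2.35 for OsNIP1;1 and from -0.28 to 1.22 for OsNIP3;1 in mock roots, and from -1.07 to 2.27 for Lsi6 and -0.12 to 0.35 for OsNIP3;1 in 2,4-D roots. The cause of these changes was not tested. With 3 libraries a group, the intervals of the 5 genes at 1 time span 1.56 to 6.22 on the log2 scale. The lowest count of the 5 genes in any library was 3, for Lsi6, and the part of depth in the intervals was not tested.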
